A study of Mus musculus with 4 samples.

Results

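Apolipoproteins are the protein components of the lipoprotein particles that carry lipids in plasma, and most of them are made in the liver. This account follows 10 apolipoprotein genes, Apoe, Apoa1, Apoa2, Apoa4, Apob, Apoc1, Apoc2, Apoc3, Apoh and Apod, out of 55397 genes in an RNA-seq table of mouse embryonic fibroblasts (MEFs) turned toward hepatocytes. The members were taken by gene name. Both groups came from C57BL/6J embryos at E13.5 with the genotype Prox1(fl/fl), in which exon 2 of Prox1 can be cut out by Cre, and both received the 4in1 lentivirus, a cassette of hepatocyte reprogramming factors. The libraries labelled Prox1 KO (4in1 + cre-GFP, 2 libraries), called KO-labelled below, also received an active Cre-recombinase, and the control libraries (4in1 + dcre-GFP, 2 libraries) received a non-functional form of it. All 4 libraries were made from the culture at day 14. MEF lines were grown from limb tissue pooled from several embryos, so no library is a single animal. The labels do not say whether the 2 libraries of a group were separate cultures, although the methods include the MEF line as a covariate. The p-values therefore cover only variation among these libraries, which may in part be technical. Those of the main test, described below, also draw on a variance shared over all tested genes. They leave out differences shared by libraries of the same replicate number.

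Apolipoproteins divide by particle and role. Apob is the structural protein of chylomicrons and very-low-density lipoprotein (VLDL), and stays with its particle for life. Apoa1 and Apoa2 are the main proteins of high-density lipoprotein (HDL), Apoe is the ligand by which remnant particles bind receptors, and the small C apolipoproteins exchange between particles and adjust lipase activity and uptake. Apod belongs to another protein family, the lipocalins, and is made by fibroblasts among many other cells, and Apoh is a plasma glycoprotein that binds phospholipid.

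The deposited values were read counts divided by a size factor of each library, called normalized counts here. Each library held 42469031 to 48524008 reads assigned to genes. Prox1, the targeted gene (ENSMUSG00000010175), stood at 72.7 and 61.6 normalized counts in the KO-labelled libraries and at 60.6 and 25.5 in the controls, with a log2 fold change of 0.75 (SE 0.27, adjusted p = 0.0936, limma). The lowest value was in a control library, so the count over the whole gene did not check the labels, and reads over exon 2 alone cannot be separated in a table of gene counts. Fibroblast markers were high in all libraries, with Col1a1 at 251990 to 300038 normalized counts. Hepatocyte markers were present at lower levels, with Alb, the albumin gene, at 3838 to 5021 and Tat, an amino acid enzyme gene of mature liver, at 0 to 2.08. Each gene was tested for a difference between groups with limma on log2(normalized counts + 1), with the replicate number as a block. A gene was tested if its mean over the 4 libraries was at least 10 normalized counts, and was called at a Benjamini-Hochberg adjusted p under 0.05 over all tested genes.

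The promoters of the 4 members called below are shown because these genes were lower together. Each is the RefSeq window of 250 bases before and 50 after an annotated start site on GRCm38.p6, written 5′ to 3′ on the strand of the gene. Capitals mark the motif TATAAA, the TATA box, on either strand. The windows are chr12:7977427-7977726 on the plus strand for Apob, chr9:46228380-46228679 on the plus strand for Apoa1, chr7:19699139-19699438 on the minus strand for the most upstream of the 3 Apoe start sites, chr7:19698572-19698871 on the minus strand for a start site within the Apoe gene, and chr16:31314759-31315058 on the minus strand for Apod.
Apob: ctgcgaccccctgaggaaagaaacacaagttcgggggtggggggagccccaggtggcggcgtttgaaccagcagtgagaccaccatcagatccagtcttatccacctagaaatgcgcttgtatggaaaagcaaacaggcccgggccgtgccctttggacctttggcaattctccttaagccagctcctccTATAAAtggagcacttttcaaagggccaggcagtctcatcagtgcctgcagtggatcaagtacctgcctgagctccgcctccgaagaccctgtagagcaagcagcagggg
Apoa1: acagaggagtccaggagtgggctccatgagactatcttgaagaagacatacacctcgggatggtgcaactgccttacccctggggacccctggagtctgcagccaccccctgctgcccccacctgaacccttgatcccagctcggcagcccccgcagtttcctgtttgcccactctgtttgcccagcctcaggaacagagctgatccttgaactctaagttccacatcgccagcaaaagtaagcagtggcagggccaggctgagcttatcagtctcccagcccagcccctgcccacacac
Apoe upstream start: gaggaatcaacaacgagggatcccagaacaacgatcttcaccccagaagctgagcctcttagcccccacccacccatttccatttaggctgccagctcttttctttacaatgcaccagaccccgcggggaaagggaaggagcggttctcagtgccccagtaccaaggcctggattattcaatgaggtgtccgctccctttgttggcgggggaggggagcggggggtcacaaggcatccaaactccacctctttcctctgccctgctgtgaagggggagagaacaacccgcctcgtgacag
Apoe internal start: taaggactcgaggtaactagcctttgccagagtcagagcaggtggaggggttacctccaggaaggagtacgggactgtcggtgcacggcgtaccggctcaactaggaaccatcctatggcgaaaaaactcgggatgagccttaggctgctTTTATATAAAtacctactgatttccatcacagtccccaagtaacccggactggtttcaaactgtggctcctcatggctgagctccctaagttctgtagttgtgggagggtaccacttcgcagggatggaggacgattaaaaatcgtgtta
Apod: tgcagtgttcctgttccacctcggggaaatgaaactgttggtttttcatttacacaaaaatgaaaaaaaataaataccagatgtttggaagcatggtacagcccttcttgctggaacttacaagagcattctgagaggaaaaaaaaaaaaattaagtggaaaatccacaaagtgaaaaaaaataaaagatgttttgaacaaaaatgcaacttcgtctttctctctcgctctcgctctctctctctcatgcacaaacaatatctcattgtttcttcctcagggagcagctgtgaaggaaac

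Of the motifs searched, 0 were in windows of all 4 called members. Of the 10 members, 8 had a promoter in the RefSeq set, Apoc1 and Apoc3 being the others, and these 8 had 11 windows because Apoe has 3 and Apoa2 has 2. TATAAA on either strand was in 3 of the 11 windows, 1 each of Apob, Apoe and Apoa2, against 13.6% of all 32851 promoters. In Apob it lay 60 to 55 bases before the RefSeq start site. The start of the Apob gene in GENCODE, chr12:7977648, lies between this motif and the RefSeq start, and so nearer to the motif. In Apoe it was absent at the upstream start and lay 100 to 91 bases before the internal start, where 1 match on each strand overlapped the other. TGTTTAC, a core motif of the FOXA factors, was in 3 of the 11, 1 each of Apoa2, Apoh and another internal start of Apoe, against 3.65% of all promoters. CAAAGTCCA, a motif of HNF4A, was in 0 of the 11 and in 0.475% of all promoters. TTGCGCAA of the CEBP factors and the E-box CACGTG were also in 0 of the 11, against 0.183% and 7.15% of all promoters. The Apod window stood apart in base composition, with 37.3% G and C, lower than in all but 6.20% of promoters, while the Apob, Apoa1 and Apoe windows held 51.0% to 59.3% and the median promoter 52.7%. Sites of other forms were not searched.

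The apolipoprotein genes spanned a wide range of expression, and the order was nearly the same in both groups. Per kilobase of exon, Apod was the highest in every library, with 27437 and 28157 normalized counts per kilobase in the controls and 17746 and 25550 in the KO-labelled libraries. It made up 79.7% to 84.6% of the summed per-kilobase level of the 10 members. Apoe followed with 3569 and 4583 normalized counts per kilobase in the controls, then Apoa1 with 1828 and 1847, and Apob, a gene with a transcript of 13934 bases, with 363 and 583. Apoa2 (90.6 and 73.3) and Apoh (65.7 and 76.8) overlapped and could not be ordered. Apoc1 lay below them, with 27.1 and 8.58 per kilobase, and Apoc3, Apoc2 and Apoa4 were each at or under 2.72 per kilobase in the controls. Apoc3 and Apoc2 overlapped in both groups, and Apoc2 and Apoa4 overlapped in the KO-labelled libraries. Among all genes ranked by mean level per kilobase in the controls, Apod was at rank 51, Apoe at 480, Apoa1 at 1133 and Apob at 4270.

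**Figure D1:**
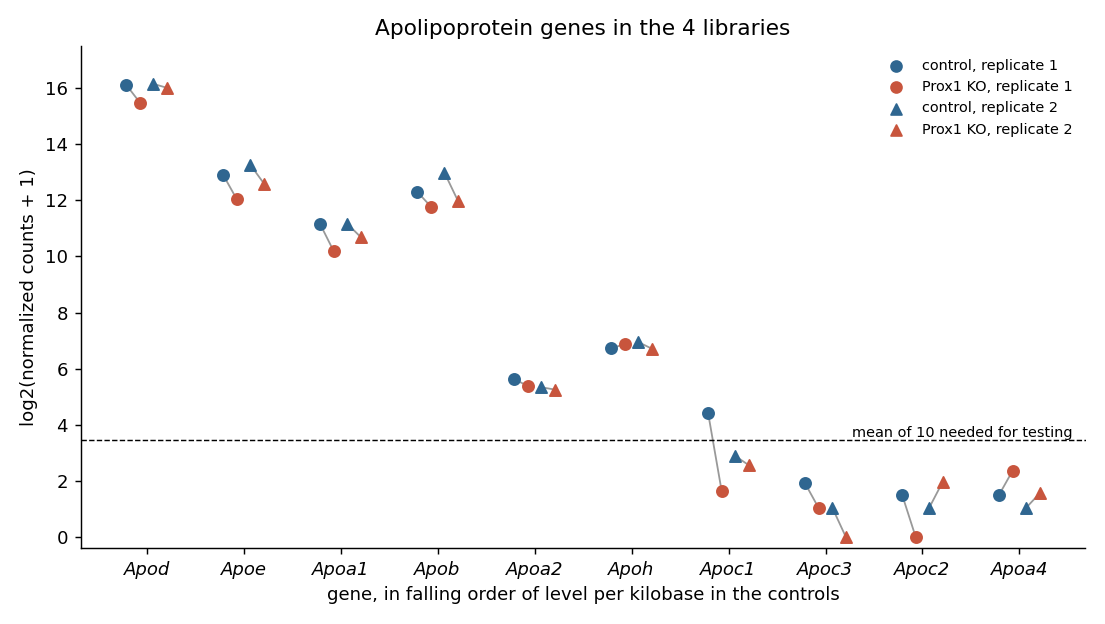
Log2(normalized counts + 1) of the 10 apolipoprotein genes in each library, with grey lines joining the control and Prox1 KO libraries of the same replicate number. The genes Apod, Apoe, Apoa1 and Apob lie far above the testing limit, and their Prox1 KO points lie below both control points, while Apoc1, Apoc3, Apoc2 and Apoa4 have means under 10 normalized counts.

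Of the 10 members, 6 passed the filter of a mean of 10 normalized counts, and 4 of these were called, all lower in the KO-labelled libraries (Apob, Apoe, Apoa1 and Apod). Over all 15809 tested genes 11.4% were called, 6.29% lower and 5.09% higher. Both replicate pairs were lower for 5 of the 6, against 33.3% of all tested genes, and higher for 0 of the 6, against 32.5%. Apoa2 and Apoh were tested and not called, and Apoc1, Apoc2, Apoc3 and Apoa4 were not tested. The median log2 fold change of the 6 tested members was -0.55, beside -0.0022 over all tested genes. In a bulk culture, fewer cells that express a gene and less of its RNA in each cell cannot be told apart.

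Apob, which forms the frame of VLDL, had 3508 and 4034 normalized counts in the KO-labelled libraries and 5053 and 8124 in the controls. The 2 groups did not overlap, and the control of replicate 2 was well above the other 3 libraries. The log2 fold change was -0.77 (SE 0.07, adjusted p = 8.13e-06, limma), a ratio of 0.587, with -0.53 in the pair of replicate 1 and -1.01 in the pair of replicate 2. Only 2.42% of tested genes had a lower log2 fold change. The gene lies at chr12:7977648-8016835 on GRCm38 with 29 exons, and no 100-base window of its longest transcript occurred in another gene.

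Apoe, the receptor ligand of remnant particles, had 4185 and 6176 normalized counts in the KO-labelled libraries and 7630 and 9799 in the controls. Both Prox1 KO values were under both control values, and replicate 2 was above replicate 1 in each group. The log2 fold change was -0.77 (SE 0.05, adjusted p = 2.36e-07, limma), a ratio of 0.588, and the pairs gave -0.87 and -0.67. Apoe was thus the member whose pairs differed least among those called. Apob and Apoe changed by nearly the same mean amount, yet Apob was less changed than Apoe by 0.34 on the log2 scale in the pair of replicate 1 and more changed by the same amount in the pair of replicate 2.

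Apoa1, the main protein of HDL, had 1156 and 1639 normalized counts in the KO-labelled libraries. The controls had 2259 and 2283, nearly equal, so almost all of the spread was within the Prox1 KO group. The log2 fold change was -0.72 (SE 0.08, adjusted p = 3.63e-05, limma), a ratio of 0.606, with -0.97 and -0.48 in the pairs. Apoa2, the other HDL protein, had 40.5 and 37.1 normalized counts in the KO-labelled libraries and 48.7 and 39.4 in the controls. Its groups overlapped, and its log2 fold change of -0.17 (SE 0.26, adjusted p = 0.756, limma) rested on 37 to 53 reads per library, and its SE was far larger than that of Apoa1.

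Apod, the lipocalin, had 45732 and 65843 normalized counts in the KO-labelled libraries and 70705 and 72561 in the controls. The groups did not overlap, but the Prox1 KO library of replicate 2 was close to the controls and that of replicate 1 was far below. The log2 fold change was -0.38 (SE 0.08, adjusted p = 0.00345, limma), with -0.63 in the pair of replicate 1 and -0.14 in that of replicate 2. The Apod change was smaller than that of Apoa1 by 0.34 on the log2 scale in both pairs, a difference given without a test. Apoh had 116 and 104 normalized counts in the KO-labelled libraries and 105 and 122 in the controls, which overlapped. Its log2 fold change was -0.04 (SE 0.18, adjusted p = 0.916, limma), and the pairs went in opposite directions, with 0.15 and -0.24.

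**Figure D2:**
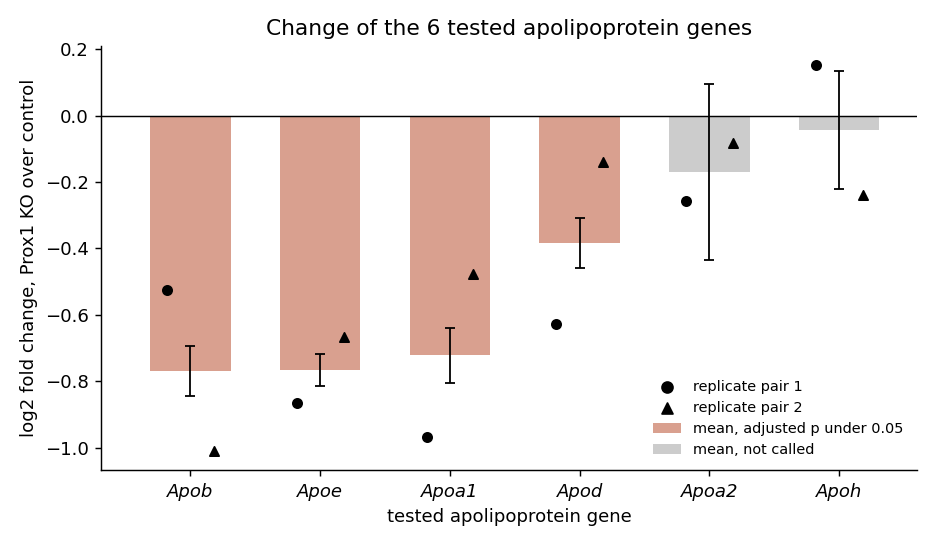
Log2 fold change of the 6 tested apolipoprotein genes, Prox1 KO over control, with bars for the limma estimate, error bars for its standard error, circles for the pair of replicate 1 and triangles for the pair of replicate 2 (1 value each). Apob, Apoe and Apoa1 lie between -0.72 and -0.77 and Apod at -0.38, with both pairs below 0, while the Apoh pairs lie on either side of 0.

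The calls depended on the replicate block and, for 2 genes, on the method. Without the block, limma called 0 of the 6 tested members, with adjusted p-values of 0.342 for Apoe, 0.315 for Apoa1, 0.360 for Apob and 0.456 for Apod. An unadjusted p under 0.05 in this fit was found for 3 of the 6, beside 1783 of all 15809 tested genes. With the block, edgeR on the recovered reads called the same 4 members, beside 6.48% of all genes called lower, whereas DESeq2 called Apoe (adjusted p = 2.02e-23) and Apob (adjusted p = 0.0400) and did not call Apoa1 (adjusted p = 0.0694) or Apod (adjusted p = 0.552). DESeq2 called 3.59% of the genes it gave an adjusted p, and 1.97% lower. The standard errors of limma are moderated over all genes. For Apod the limma SE of 0.08 stands beside pair values that were 0.49 apart on the log2 scale. Similar gaps were found for Apoa1 (SE 0.08, pairs -0.97 and -0.48) and Apob (SE 0.07, pairs -0.53 and -1.01). The Apoe pairs, -0.87 and -0.67, lay closer together (SE 0.05). Groups that did not overlap, as in these 4 genes, were found in the lower direction in 22.6% of all tested genes and in the higher direction in 21.8%.

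The C apolipoproteins and Apoa4 were at the limit of detection. Apoc1, which slows the uptake of remnant particles, had 2 and 5 reads in the KO-labelled libraries and 22 and 6 in the controls. In the pair of replicate 1 the ratio of Prox1 KO to control was 0.103 (95% interval for counting error 0.0117 to 0.419, exact), and in the pair of replicate 2 it was 0.765 (0.185 to 3.01). The high value was in 1 control library, and the interval of the other pair included no change. Apoc3, an inhibitor of lipoprotein lipase, had 1 and 0 reads in the KO-labelled libraries and 3 and 1 in the controls, and Apoc2, the activator of that lipase, had 0 and 3 reads against 2 and 1. Apoa4, a protein mostly of intestinal particles, had 4 and 2 reads against 2 and 1 and was the only member with both pairs higher in Prox1 KO, at values where 3 reads are the upper limit that a count of 0 allows. For Apoc2, 87.3% of the 100-base windows of its transcript also occur in the readthrough gene Gm44805, which was at 0 in all libraries, so its count is uncertain. For Apoa4, 51.1% of windows are shared with antisense genes, also at 0.

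Several of the members are neighbours in the genome, and within each cluster a single gene was expressed well. The cluster on chromosome 7 spans 27.6 kb and holds Apoc2, Apoc4, Apoc1 and Apoe, all on the minus strand, with Apoe at chr7:19696109-19699188. Apoe averaged 8714 normalized counts in the controls, and Apoc1, which begins 3448 bases from it, averaged 13.3. Tomm40, a mitochondrial import gene on the other side of Apoe at 2124 bases, was at 2970 and 2822 normalized counts in the KO-labelled libraries and 2841 and 2898 in the controls, a log2 fold change of 0.01 (SE 0.05, adjusted p = 0.908, limma). The cluster on chromosome 9 spans 43.3 kb and holds Apoa1, Apoc3, Apoa4 and Apoa5, with Apoa1 at chr9:46228580-46230466. Apoa1 averaged 2271 normalized counts in the controls, Apoc3, 2466 bases away, averaged 1.91, and Apoa5, an activator of plasma triglyceride breakdown, was at 0 in all libraries. Sik3, the kinase gene 4385 bases from Apoa1, had a log2 fold change of 0.11 (SE 0.04, adjusted p = 0.138, limma). The falls of Apoe and Apoa1 thus stood beside flanking genes, Tomm40 and Sik3, that were not called.

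**Figure D3:**
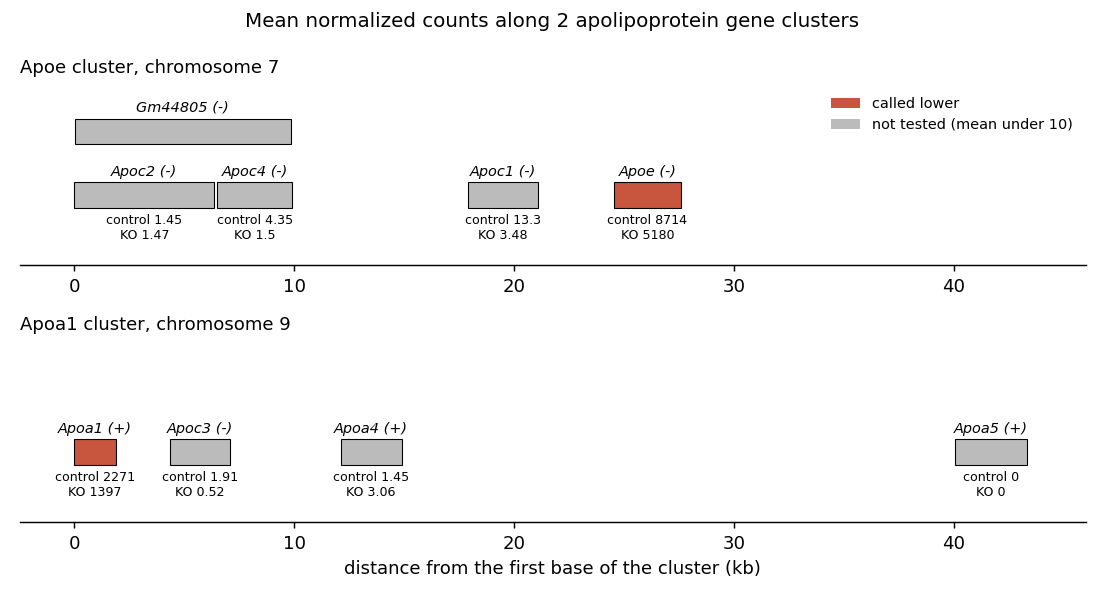
Protein-coding genes of the Apoe cluster on chromosome 7 and the Apoa1 cluster on chromosome 9, placed by distance in kilobases from the start of the cluster, with the strand in parentheses and the mean normalized counts of each group below each gene; Gm44805 is a readthrough gene drawn above Apoc2 and Apoc4 and was at 0. Apoe and Apoa1 are called lower, and the other genes of both clusters have means over the 4 libraries under 10.

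The remaining members lie alone or beside genes of other families. Apod, at chr16:31296192-31314808, is 20914 bases from Ppp1r2, a phosphatase inhibitor gene that rose (log2 fold change 0.19, SE 0.04, adjusted p = 0.00700, limma), and 107471 bases from Bdh1, a ketone body enzyme gene (0.32, SE 0.11, adjusted p = 0.0767). Apob has distant neighbours, Klhl29 and Ldah, with log2 fold changes of -0.05 each and adjusted p-values of 0.724 and 0.621 in limma. Apoh, at chr11:108343354-108414396, is overlapped on the opposite strand by Prkca, a protein kinase C gene that rose (log2 fold change 0.19, SE 0.04, adjusted p = 0.0111, limma) from 4535 and 3817 normalized counts in the controls to 5004 and 4504. No 100-base window of the longest Apoh transcript occurred in the transcripts of Prkca. That search used spliced transcripts and did not cover unspliced RNA of Prkca. The strand setting of the counts is not given, so the Apoh count is uncertain. Apoa2, at chr1:171225054-171226379, lies 2539 bases from Tomm40l, with a log2 fold change of -0.05 (adjusted p = 0.713, limma).

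The genes that handle lipoprotein particles were called lower more often than higher. Of 70 other lipoprotein genes in 7 lists, 53 were tested, with a median log2 fold change of -0.03. Of these, 4 were called higher and 10 lower, beside 5.09% and 6.29% of all tested genes. The higher calls were small, with log2 fold changes of 0.16 to 0.34. DESeq2 kept 2 of the higher and 6 of the lower calls, and called 3.59% of all genes it gave an adjusted p. Among the other apolipoprotein genes, 3 of 9 were tested and 1 was called, Clu, which encodes the HDL-associated chaperone apolipoprotein J. Clu had 9278 and 11393 normalized counts in the KO-labelled libraries and 13669 and 20889 in the controls, a log2 fold change of -0.72 (SE 0.06, adjusted p = 1.19e-06, limma). Its value was thus near that of Apoa1.

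Particle assembly and secretion, the steps that load lipid onto Apob and carry it out of the cell, had 13 tested genes of 13. Of these, 0 were called higher and 2 lower, beside 5.09% and 6.29% of all tested genes. Tm6sf2, a gene needed for lipid loading of VLDL, had 24.9 and 21.5 normalized counts against 48.7 and 56.4 in the controls (log2 fold change -1.14, SE 0.29, adjusted p = 0.0173, limma). Cideb, which acts in VLDL lipidation, had 38.5 and 42.0 against 71.6 and 89.4 (log2 fold change -0.98, SE 0.23, adjusted p = 0.0120, limma). DESeq2 did not call Cideb (adjusted p = 0.420) and gave Tm6sf2 no adjusted p. Mttp, the transfer protein that Apob needs to fold with lipid, had 441 and 464 normalized counts against 424 and 505 (log2 fold change -0.03, SE 0.09, adjusted p = 0.876, limma). Apob fell while Mttp, which acts on it directly, was not called.

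The Apob mRNA is edited in the mouse by Apobec1, a deaminase, with the cofactors A1cf and Rbm47. Apobec1 was expressed at 1493 and 1657 normalized counts against 1609 and 1619, and Rbm47 at 369 and 346 against 377 and 379, and neither was called (adjusted p = 0.754 and 0.682, limma). A1cf was nearly silent, with 0 to 2.13 normalized counts. Editing itself cannot be read from gene counts.

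Among plasma enzymes and their inhibitors, 6 of 10 genes were tested. Of these, 1 was called higher and 2 lower, beside 5.09% and 6.29% of all tested genes. Pltp, which moves phospholipid between particles, rose from 11179 and 10848 normalized counts to 14504 and 13360 (log2 fold change 0.34, SE 0.04, adjusted p = 5.62e-05, limma). Angptl4, an inhibitor of lipoprotein lipase, fell from 2333 and 2628 to 1613 and 1869 (log2 fold change -0.51, SE 0.05, adjusted p = 9.17e-06, limma). Pltp moved in the direction opposite to the called members.

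The genes that bring cell lipid to apolipoprotein A-I also lay in the opposite direction. Abca1, the pump that loads lipid onto lipid-poor apolipoprotein A-I, had 7884 and 7436 normalized counts in the KO-labelled libraries and 7002 and 6364 in the controls (log2 fold change 0.20, SE 0.04, adjusted p = 0.00481, limma). DESeq2 called Abca1 close to the threshold (adjusted p = 0.0498). Abcg1, which exports sterol to mature HDL, had 1268 and 1377 against 1123 and 1188 (0.19, SE 0.06, adjusted p = 0.0472, limma). Scarb1, the HDL docking receptor, had 1263 and 1203 against 1112 and 1130 (0.14, SE 0.06, adjusted p = 0.189, limma) and was not called. The call of Abcg1 was lost with DESeq2 (adjusted p = 0.633), in limma with a pseudocount of 10 (adjusted p = 0.0530) and in limma after the GC and length correction (adjusted p = 0.0508).

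Among lipoprotein receptors and their adaptors, 12 of 12 genes were tested, with a median log2 fold change of -0.00076. Of these, 1 was called higher and 4 lower, beside 5.09% and 6.29% of all tested genes. The 4 that fell are best known from absorptive epithelia and liver. Lrp2, the large endocytic receptor megalin, fell from 702 and 743 normalized counts to 232 and 286 (log2 fold change -1.48, SE 0.10, adjusted p = 2.48e-07, limma). Cubn, the receptor that takes up apolipoprotein A-I and partners with megalin, fell from 5422 and 7223 to 3349 and 3989 (-0.78, SE 0.05, adjusted p = 2.10e-07, limma), and its membrane anchor Amn fell with a log2 fold change of -0.72 (SE 0.13, adjusted p = 0.00217, limma), a call lost with DESeq2 (adjusted p = 0.133). Lsr, a lipolysis-stimulated receptor that also sits at tricellular junctions, fell from 1131 and 1569 to 495 and 639 (-1.24, SE 0.07, adjusted p = 9.52e-08, limma). Vldlr, a receptor for Apoe-bearing particles, was the gene called higher, with a log2 fold change of 0.16 (SE 0.05, adjusted p = 0.0374, limma). Its 2440 and 2816 normalized counts in the KO-labelled libraries overlapped the 2185 and 2503 of the controls, and DESeq2 did not call it.

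Of 20 transcriptional regulators of apolipoprotein genes, 14 were tested and 1 was called, beside 11.4% of all tested genes. Hnf4a, the nuclear receptor that drives many liver apolipoprotein genes, had 57.2 and 64.5 normalized counts against 101 and 175 in the controls (log2 fold change -1.12, SE 0.20, adjusted p = 0.00210, limma), and DESeq2 did not call it (adjusted p = 0.0938). HNF4A is also a factor used to reprogram fibroblasts to hepatocytes, so reads of a transgene and of the cell's own gene may both be in this count and could not be separated.

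**Figure D4:**
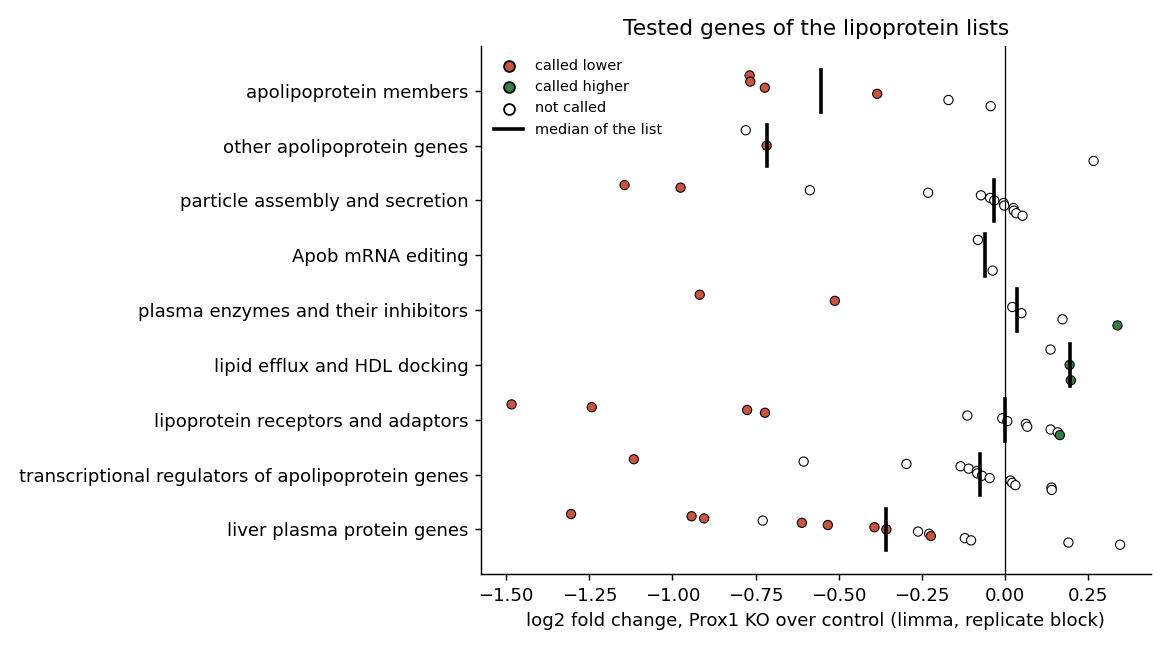
Log2 fold change, Prox1 KO over control, of each tested gene in the apolipoprotein members and 8 other gene lists, with filled points for called genes and a black bar for the median of each list. The members (median -0.55) and the liver plasma protein genes (median -0.36) lie mostly below 0, and the genes of lipid efflux lie above 0 (median 0.19).

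The most similar group of genes by role, other secreted plasma proteins of the liver, also lay lower. Of 25 genes 15 were tested, 0 were called higher and 8 lower, with a median log2 fold change of -0.36, again beside 6.29% of all tested genes called lower. Trf, the plasma iron carrier, fell from 2055 and 1829 normalized counts to 700 and 878 (log2 fold change -1.30, SE 0.09, adjusted p = 2.86e-07, limma). Fgb, a fibrinogen chain, fell from 288 and 308 to 123 and 195 (-0.94, SE 0.15, adjusted p = 0.000609, limma), and Ttr, the thyroxine carrier, from 216 and 287 to 136 and 129 (-0.90, SE 0.15, adjusted p = 0.00105, limma). Gc, the vitamin D carrier, fell from 1940 and 2077 to 1138 and 1517 (-0.61, SE 0.07, adjusted p = 2.94e-05, limma). Alb was not called (-0.10, SE 0.04, adjusted p = 0.158, limma). Trf, Fgb, Ttr and Gc were named because they had the largest changes among the called genes of this list, so the other called genes fell less. Apob, Apoe and Apoa1 lay within the range of these 4 falls and below the list median of -0.36.

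Markers of several cell types that make apolipoproteins moved with the groups, and their part in the results was not tested. The marker calls below stand beside 6.29% of all tested genes called lower and 5.09% called higher. The summed level of the 10 hepatocyte markers was 14995 and 15990 normalized counts in the KO-labelled libraries and 19810 and 19440 in the controls. Most of that sum was Afp, with 9555 and 9157 against 12115 and 9839, and Alb, with 3838 and 4766 against 4197 and 5021. Alb was not called by limma, while 6 of 9 tested hepatocyte markers were called lower. Of these, Ttr, Trf, Fgb and Afp are also in the plasma protein list and Hnf4a in the list of regulators. Macrophages make Apoe, and the 8 macrophage markers summed to 509 and 607 against 652 and 678, with Adgre1 at 0 in all libraries, C1qa and C1qb at 0 to 1.95 and Ptprc at 6.43 to 9.77 normalized counts. Of the 4 macrophage markers tested, Cd14 was called lower, with 204 and 245 against 348 and 393 (log2 fold change -0.72, adjusted p = 0.000581, limma). Cd68 (0.41, adjusted p = 0.0758), Csf1r (-0.29, adjusted p = 0.411) and Lyz2 (0.09, adjusted p = 0.913) were not called by limma. The enterocyte is the other main source of Apob and Apoa1, and the 7 intestinal markers summed to 960 and 1184 against 1582 and 2193. Most of that sum was Vil1, a microvillus gene also of other epithelia (log2 fold change -0.82, adjusted p = 8.33e-07, limma), while Cdx2 and Fabp1 were at 0 in all libraries. Fibroblasts express Apod, and the 7 fibroblast markers summed to 689653 and 882253 against 770963 and 963878, with replicate 1 below replicate 2 in both groups and 3 of 7 markers called lower (Col3a1, Pdgfra and Dcn). The 5 Schwann cell and glia markers, another known source of Apod, summed to 192 and 178 against 223 and 193, and Sox10 was at 0 to 0.977. The 5 adipocyte markers summed to 1844 and 1442 against 1723 and 1220, almost all of it Fabp4, with 0 called. The 6 cholangiocyte markers summed to 86107 and 111130 against 89299 and 127401, mostly Spp1, with Krt19 and Epcam called lower, and the 5 endothelial markers to 1067 and 949 against 751 and 646, with Kdr called higher and Cdh5 at 3.67 to 8.80.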

How the data were processed

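RNA-seq of 4 libraries at day 14 was analysed, 2 labelled Prox1 KO and 2 controls. Per the paper's methods and the labels, the authors mapped paired-end reads to mm10 with STAR. They deposited a signal per gene, read counts divided by the DESeq2 size factor of each library. The counting tool, its strand setting and the annotation release are not given in the sources used here. A second deposited table holds the authors' own fold changes and p-values and was not used. The smallest step between values gave size factors of 0.939 to 1.09, with which 100% of values were whole reads within 0.001 of a read. Replicates of a group differed beyond sampling noise in 34.2% and 35.4% of genes (chi-square test), so none was counted as a duplicate.

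Testing was limited to the 15809 of 55397 genes whose mean reached 10 normalized counts, and was done with limma 3.58.1 (R 4.3.3) on log2(normalized counts + 1), with an intensity trend, the replicate number as a block and Benjamini-Hochberg adjustment. The block follows the methods, in which the MEF line was a covariate. Whether a replicate number marks such a line is not said in the sources, and same-numbered libraries deviated together from their group means with a correlation of 0.402 over genes. Alternatives were no block, other pseudocounts and filters, quantile normalization, edgeR 4.0.16 and DESeq2 1.42.0 on the recovered reads, and left-out replicates. A correction for GC content and length and single left-out libraries were added after the data were seen. The scripts were tested on simulated data. Fold changes are on the log2(value + 1) scale and understate the change of low genes. Intervals are computed from the read counts of a pair, so they cover counting error only and no variation between replicates. The reads carry no molecular identifiers, so copies of the same molecule count as separate reads and the intervals may be too narrow.

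The members and all gene lists were chosen with earlier results of these data known. Named genes were the members, Prox1, the called genes of each list (at most the 4 with the largest change), genes of lists of up to 3, genomic neighbours and the 3 genes nearest in profile to each called member. Mttp, Alb and Vldlr lie outside this rule and were named after their values were seen. Results for some listed genes are not reported here. Positions come from GENCODE vM21 on GRCm38 and promoters from RefSeq on GRCm38.p6. Protein sequences were not used here.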

Additional observations from a re-analysis of the deposited data

How the results depend on the processing

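The calls depended on the replicate block. Without it limma called 0 of the 6 tested apolipoprotein genes, 0 of all genes, 0 of the other lipoprotein genes and 0 of the liver plasma protein genes, with 3, 1783, 13 and 7 at an unadjusted p under 0.05. With the block, DESeq2 called 2 of the apolipoprotein genes, 471 of all genes and 8 of the other lipoprotein genes. Leaving out a single library, without the block, gave 0 to 3 apolipoprotein calls and 0 to 118 calls over all genes. Without the Prox1 KO library of replicate 2, limma called Apoe, Apoa1 and Apod and 118 genes, and without each of the other 3 libraries in turn it called 0 of both, with 3 of the apolipoprotein genes and 880 to 1653 of all genes at an unadjusted p under 0.05. In these fits the lone library of a group is assumed to vary like the other group. Leaving out a whole pair allows no test, and the Apod log2 fold change then was -0.63 or -0.14. The 4 apolipoprotein calls were the same genes with pseudocounts of 0.1 and 10, with no filter, with a mean of at least 50, with quantile normalization, with edgeR and with the GC and length correction. That correction turned 804 higher and 994 lower calls into 1192 and 931. Apoh changed sign with quantile normalization (0.057), with the GC and length correction (0.016) and without the Prox1 KO (0.040) or control (0.069) library of replicate 2. Apobec1 changed sign with the GC and length correction (0.015) and without the Prox1 KO library of replicate 1 (0.038). Neither was called under any alternative. The causes were not tested. Depth limited Apoc1, Apoc2, Apoc3 and Apoa4, with 0 to 22 reads.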

Other observations

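Among 13943 tested protein-coding genes, those with log2 values nearest to each called apolipoprotein gene over the 4 libraries, after centring on the gene mean, were found by Euclidean distance in log2 units. With 4 libraries such likeness is a description and many genes lie close. A shared function of the nearest genes was not tested. Nearest to Apoe was Mboat1 at a distance of 0.0309, followed by Epha5 (0.0551) and Cdc6 (0.0750). Mboat1 had 145 and 211 normalized counts in the KO-labelled libraries and 267 and 335 in the controls. Nearest to Apob was Faah at 0.0307, with 79.0 and 89.0 against 113 and 185, followed by Slc27a6 (0.0848) and Cyp2d26 (0.0892). Nearest to Apoa1 was Slc3a1 at 0.0680, with 9.35 and 14.7 against 20.2 and 20.2, followed by Cd36 (0.0739) and Il13ra2 (0.0851). Cd36 was also low, with 13.5 and 20.5 against 26.6 and 27.7. Slc3a1 and Cd36 were not called (adjusted p = 0.290 and 0.270, limma). Nearest to Apod was Gm14305 at 0.0124, with 63.4 and 90.9 against 98.2 and 100.1, followed by Xrcc2 (0.0327) and Ppm1j (0.0425). None of these near genes of Apod was called (adjusted p = 0.271, 0.220 and 0.197, limma).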
